A study of Mus musculus with 12 samples.

Results

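The orosomucoid genes Orm1, Orm2 and Orm3 and the serum amyloid A genes Saa1, Saa2, Saa3 and Saa4 encode secreted proteins of the acute phase response. Every probe set that the annotation of the Affymetrix mouse expression array gives to one of them was taken, which gave 9 of 22626 probe sets (control probe sets left out) and 7 of 12393 genes that have a probe set of their own. Liver RNA was measured in 12 male mice, 1 array per mouse, in 4 groups of 3. KO_RA mice had hepatocytes without functional RXRα, the retinoid X receptor alpha, and were fed all-trans retinoic acid (RA) in the diet at 150 mg/kg during 7 days, WT_RA mice were wild type on that same diet, KO mice lacked hepatocyte RXRα and ate the normal diet, and WT mice were wild type on the normal diet. In the KO and KO_RA mice, Cre driven by the albumin promoter removes the exon of Rxra that encodes the DNA-binding domain, so a shortened protein with the ligand-binding domain can still be made and RXRα of other liver cells is kept. Wild type mice were 12 weeks old. Values are on the log2 scale, on which a difference of 1 is a doubling of signal, and the titles call the 3 arrays of a group biological replicates.

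In the acute phase response, cytokines released by macrophages, chiefly interleukin 6, interleukin 1 and tumor necrosis factor, act on hepatocytes, where STAT3, C/EBP factors and NF-κB raise transcription of secreted defense proteins. Orosomucoid, also called alpha-1-acid glycoprotein, is a lipocalin that carries small lipophilic molecules and dampens inflammation. Serum amyloid A proteins of the liver travel on high-density lipoprotein, and Saa1 and Saa2 are the classical acute phase forms. Saa3 is also made outside hepatocytes, in macrophages and adipocytes among other cells, and Saa4 is the constitutive form.

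Both families are gene clusters. In the mouse assembly GRCm38.p6, Orm1, Orm3 and Orm2 lie in this order at chr4:63344556-63348163, chr4:63356069-63359506 and chr4:63362449-63365877, and Saa3, Saa4, Saa1 and Saa2 lie at chr7:46711998-46719615, chr7:46727992-46732603, chr7:46740497-46743181 and chr7:46751833-46754313. The table of RefSeq promoters held 6 of the 7 genes, all but Orm1. The 250 bases before the start used in that table are printed for the Orm2 and Orm3 pair and for the Saa1 and Saa2 pair, since these neighbours are close copies that the probe sets may not separate and since Orm2, Saa2 and Orm3 had the largest differences with RA among the members, averaged over genotypes. Capitals mark matches to the C/EBP motif TTNNGNAA, to the TATA box TATAAA and to the NF-κB consensus, searched on both strands, and the sequences run 5′ to 3′ on the strand of the gene. For Orm3, Saa1 and Saa3 the start used in the table lies inside the span of the gene given above, so these windows include bases of the gene.
Orm2 (chr4:63362199-63362448, plus strand): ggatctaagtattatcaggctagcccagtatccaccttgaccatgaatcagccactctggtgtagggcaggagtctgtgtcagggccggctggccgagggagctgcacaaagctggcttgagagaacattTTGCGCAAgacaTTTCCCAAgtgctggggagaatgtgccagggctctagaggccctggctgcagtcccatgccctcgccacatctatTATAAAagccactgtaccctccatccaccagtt
Orm3 (chr4:63355908-63356157, plus strand): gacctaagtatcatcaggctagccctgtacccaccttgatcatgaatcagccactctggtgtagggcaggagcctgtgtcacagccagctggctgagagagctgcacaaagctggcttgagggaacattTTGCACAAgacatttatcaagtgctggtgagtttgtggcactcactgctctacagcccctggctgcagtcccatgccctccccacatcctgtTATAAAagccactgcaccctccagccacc
Saa1 (chr7:46742981-46743230, minus strand): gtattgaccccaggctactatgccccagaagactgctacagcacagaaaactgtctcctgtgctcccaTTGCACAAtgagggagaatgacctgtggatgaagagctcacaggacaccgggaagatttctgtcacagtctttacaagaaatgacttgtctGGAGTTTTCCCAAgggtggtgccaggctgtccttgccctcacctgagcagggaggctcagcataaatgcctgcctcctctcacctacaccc
Saa2 (chr7:46751583-46751832, plus strand): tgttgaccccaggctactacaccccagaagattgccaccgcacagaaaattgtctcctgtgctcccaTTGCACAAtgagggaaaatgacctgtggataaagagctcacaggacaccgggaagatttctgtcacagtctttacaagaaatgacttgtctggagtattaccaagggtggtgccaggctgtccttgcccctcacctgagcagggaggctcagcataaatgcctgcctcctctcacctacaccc

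The Orm2 and Orm3 windows were identical at 89% of 245 aligned bases, and the Saa1 and Saa2 windows at 95.6% of 249. The C/EBP motif was found in all 6 windows, and in 36.8% of 32851 RefSeq promoters of the same length. In Orm2 it began 120 bases before the start (TTGCGCAA) and in Orm3 121 bases before it (TTGTGCAA on the minus strand), while Saa1 and Saa2 carried TTGTGCAA on the minus strand, between 182 and 175 bases before the start in Saa1 and between 183 and 176 in Saa2. Saa3 held 4 such matches and Saa4 held 2. The NF-κB consensus matched Saa1 alone among the 6 (GGAGTTTTCC, 91 to 82 bases before the start, overlapping a second C/EBP match) and 9.55% of all promoters. TATAAA was present in Orm2 and Orm3 and in 12.4% of all promoters. The STAT motif TTCNNNGAA (7.02% of all promoters), the type II interleukin 6 element CTGGGA (27%), the HNF1 core GTTAAT (6.43%), the glucocorticoid receptor element (0.341%), and the direct repeats of the retinoid receptors with a spacing of 5 (0.0883%) or of 1 (0.164%) matched none of the 6 windows. A match describes these letters only, and the windows leave out distal elements.

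The probe sets do not separate all 7 genes. The suffix _s marks a probe set that matches several transcripts or genes, _x one with probes that cross-hybridize, and _a one for several transcripts of 1 gene. The Saa1 probe set 1419075_s_at carries the same RefSeq transcript as the Saa2 probe set 1449326_x_at, which RefSeq now assigns to Saa2, and RefSeq lists Saa2 among the older names of Saa1 and Saa1 among those of Saa2. Probe set 1450788_at carries a Saa1 transcript and has no such suffix. Probe set 1451054_at of Orm1 had no transcript accession in the annotation. Saa1 and Saa2 values are therefore given by probe set and may hold signal of both genes, and the 3 Orm probe sets may likewise share signal.

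The array medians lay between 6.26 and 6.35 log2 units, and rank correlations within groups between 0.976 and 0.994. A 3′ control probe set for Actb was low on WT_RA 3 (9.40) and on KO 1 (9.12) and lay at 12.1 to 12.9 elsewhere, so the counts of calls, and the named calls that were lost, are also given without them. Hepatocyte markers (11 measured) averaged 12.9 to 13.2 on every array, as for liver tissue. Their mean was 13.10 to 13.22 in KO_RA livers, against 12.90 to 13.08 in KO livers, so these groups did not overlap, and 12.89 to 13.13 in WT_RA livers, against 13.12 to 13.21 in WT livers. Endothelial markers averaged 6.96 to 7.01 in KO_RA livers, against 7.14 to 7.53 in KO livers, with Tek, an endothelial receptor, called lower (−0.99, limma adjusted p = 0.0222). Stellate cell markers averaged 6.60 to 6.85 in KO_RA livers, against 7.01 to 7.10 in KO livers. These markers thus moved with the RA comparison in KO mice, and their part in the results below was not tested. Cyp26a1, an RA-degrading enzyme and direct RA target, read 11.39, 11.34 and 11.15 in KO_RA livers and 12.54, 12.58 and 12.37 in WT_RA livers, against 8.43, 8.43 and 8.69 in KO livers and 7.49, 8.36 and 8.11 in WT livers, which matches the diet labels. In whole liver, fewer cells of a type and less RNA per cell cannot be told apart.

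All 9 probe sets had a higher mean with RA in both genotypes. In KO mice 4 of 9 passed the test after RA, as higher, where 0.177% of all probe sets did. In WT mice 3 of 9 did, where 0.575% of all probe sets did. The groups did not overlap for 8 of 9 probe sets in KO_RA against KO (9.93% of all probe sets were higher without overlap) and for 8 of 9 in WT_RA against WT (7.76%), the exceptions being Saa3 in KO mice and Orm1 in wild type mice. The median difference was 1.71 in KO mice and 1.51 in WT mice, against −0.02 and −0.01 over all probe sets. An unadjusted p under 0.05 was reached by 8 of 9 probe sets in KO mice and by 9 of 9 in WT mice. Of all 22626 probe sets, 3132 reached it in KO mice and 2395 in WT mice, in either direction. The test was limma's moderated test across all 22626 probe sets, with Benjamini-Hochberg adjustment within a contrast and calls at an adjusted p under 0.05. With 1 array left out in turn, between 1 and 5 probe sets were called in KO mice, the lowest without KO 3 or KO_RA 2, and between 0 and 5 in WT mice, with 0 without WT 3 or WT_RA 2. Without WT_RA 3 and KO 1 together, 4 were called in KO mice and 2 in WT mice, those in WT mice being Orm3 (adjusted p = 0.0348) and Saa4 1419318_at (adjusted p = 0.0440), with Orm2 at 2.61 (adjusted p = 0.0592), Saa2 at 2.71 (adjusted p = 0.265) and Saa3 at 2.04 (adjusted p = 0.141).

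**Figure D1:**
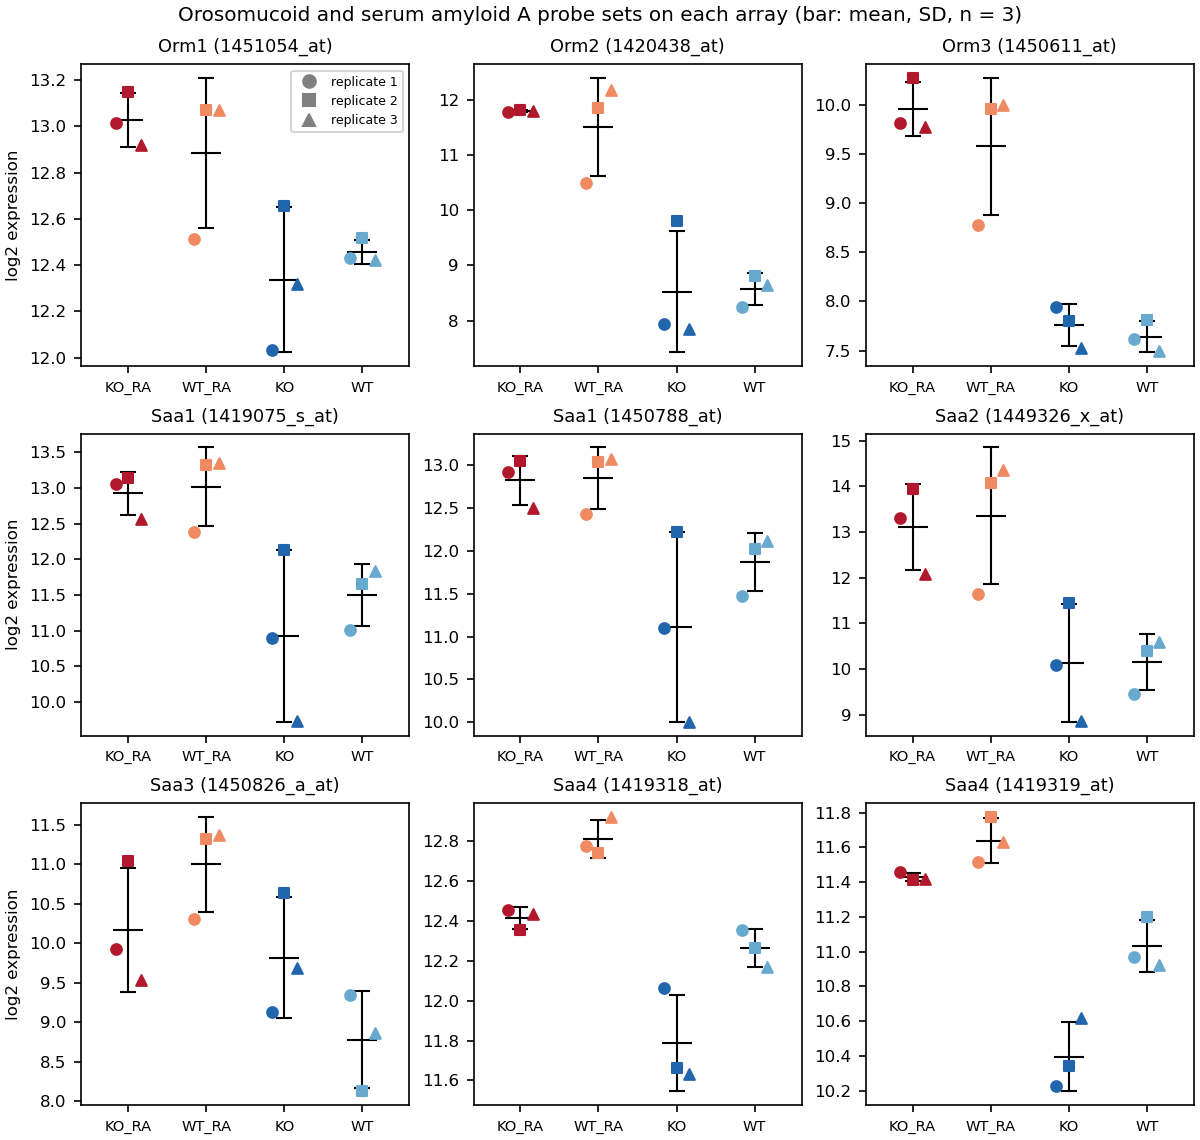
Log2 expression (vertical axis) of the 9 Orm and Saa probe sets on each of the 12 arrays, by group (horizontal axis), with the mean and SD of 3 arrays per group; each panel has its own scale, which does not start at 0. Orm2 lies between 11.77 and 11.82 in KO_RA and between 7.85 and 9.80 in KO livers, and Saa4 is the member with the least spread within groups.

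Orm2 had the largest response of the orosomucoid genes. Its log2 level was 11.77, 11.82 and 11.80 in KO_RA livers, against 7.93, 9.80 and 7.85 in KO livers. In WT_RA livers it was 10.50, 11.85 and 12.17, against 8.24, 8.81 and 8.65 in WT livers. All 6 livers on RA exceeded all 6 on the normal diet, with WT_RA 1 the lowest of those on RA and KO 2 the highest of the others. The difference was 3.27 ± 0.49 in KO mice (SE of the model, n = 3 per group, 9.65-fold, limma adjusted p = 0.0228) and 2.94 ± 0.49 in WT mice (7.67-fold, adjusted p = 0.0260). The call in KO mice was lost in 5 of 12 fits with 1 array left out (without KO 1, KO 3 or any of the KO_RA arrays, adjusted p up to 0.0980), and that in WT mice in 5 of 12 (without any of the WT arrays, WT_RA 2 or WT_RA 3, up to 0.0937). In these fits the difference stayed between 2.93 and 3.91 in KO mice and between 2.61 and 3.44 in WT mice.

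Orm3 rose as well. It read 9.82, 10.27 and 9.77 in KO_RA livers, against 7.95, 7.80 and 7.53 in KO livers, a difference of 2.19 ± 0.28 (4.58-fold, limma adjusted p = 0.0100). In WT_RA livers it read 8.77, 9.96 and 10.001, against 7.62, 7.81 and 7.49 in WT livers, a difference of 1.94 ± 0.28 (3.83-fold, adjusted p = 0.0100). The 6 livers on RA again lay above the 6 on the normal diet, and WT_RA 1 was again the lowest of those on RA. Without KO 3 or KO_RA 2 the call in KO mice was lost (adjusted p up to 0.0583), as was the call in WT mice without WT 3 or WT_RA 2 (up to 0.0625).

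Orm1 was already bright on the normal diet and had the smallest differences of the orosomucoid genes. It read 13.02, 13.15 and 12.92 in KO_RA livers, against 12.03, 12.66 and 12.32 in KO livers. It read 12.51, 13.07 and 13.07 in WT_RA livers, against 12.43, 12.52 and 12.42 in WT livers. WT_RA 1 lay within the WT values and the other WT_RA arrays above them, while the KO_RA and KO groups did not overlap. The differences of 0.69 ± 0.17 in KO mice (limma adjusted p = 0.116) and 0.43 ± 0.17 in WT mice (adjusted p = 0.386) did not pass the test.

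Of the acute phase Saa genes, Saa2 had the widest range. Probe set 1449326_x_at read 13.31, 13.93 and 12.09 in KO_RA livers, against 10.10, 11.45 and 8.86 in KO livers. It read 11.65, 14.07 and 14.36 in WT_RA livers, against 9.45, 10.40 and 10.59 in WT livers. On WT_RA 2 and WT_RA 3 this was the brightest probe set of the whole array. Both pairs of groups were without overlap, yet the within-group spread was large, with a pooled SD of 1.13 that exceeded that of 99.9% of probe sets. The differences of 2.98 ± 0.77 in KO mice (7.87-fold, limma adjusted p = 0.131) and 3.21 ± 0.77 in WT mice (9.26-fold, adjusted p = 0.0953) did not pass the test. Of the 12 fits with 1 array left out, 1 called the difference in WT mice, that without WT_RA 1 (4.07, adjusted p = 0.0289). In the others it went down to 2.71, with limma adjusted p up to 0.306. In KO mice none of these fits called it.

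The Saa1 probe sets gave the same picture at smaller size. Probe set 1450788_at read 12.91, 13.05 and 12.49 in KO_RA livers, against 11.10, 12.22 and 10.01 in KO livers, a difference of 1.71 ± 0.43 (3.27-fold, limma adjusted p = 0.119). In WT_RA livers it read 12.43, 13.04 and 13.07, against 11.48, 12.02 and 12.11 in WT livers, a difference of 0.98 ± 0.43 (1.97-fold, adjusted p = 0.452). Every liver on RA was above every liver on the normal diet. Probe set 1419075_s_at, which shares its transcript with the Saa2 probe set, read 13.05, 13.14 and 12.57 in KO_RA livers, against 10.90, 12.14 and 9.73 in KO livers. It read 12.38, 13.33 and 13.34 in WT_RA livers, against 11.01, 11.66 and 11.84 in WT livers. Its differences were 1.998 ± 0.49 in KO mice (adjusted p = 0.112) and 1.51 ± 0.49 in WT mice (adjusted p = 0.240). Without KO 2, the KO liver with the highest values, both probe sets passed the test in KO mice (adjusted p = 0.0247 for 1450788_at and 0.0282 for 1419075_s_at). This was the only 1 of 12 fits with 1 array left out that called either in KO mice. In the others the differences went down to 1.16 and 1.40, with limma adjusted p up to 0.345 and 0.328.

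Saa4, the constitutive form, changed by less but with little spread. Probe set 1419319_at read 11.46, 11.41 and 11.42 in KO_RA livers, against 10.23, 10.34 and 10.62 in KO livers, a difference of 1.03 ± 0.12 (2.05-fold, limma adjusted p = 0.00709), and this call was kept in all 12 fits with 1 array left out. In WT_RA livers it read 11.51, 11.78 and 11.63, against 10.97, 11.20 and 10.92 in WT livers, a difference of 0.61 ± 0.12 (1.52-fold, adjusted p = 0.0375). The call in WT mice was lost in 8 of 12 such fits (without any of the WT or KO_RA arrays, WT_RA 2 or WT_RA 3, adjusted p up to 0.141). It was also lost with the replicate number as a block in all groups (adjusted p = 0.0642), and was kept with that block in the wild type mice alone (adjusted p = 0.0396), a fit chosen after seeing the data. Probe set 1419318_at read 12.45, 12.35 and 12.43 in KO_RA livers, against 12.06, 11.66 and 11.63 in KO livers, a difference of 0.63 ± 0.11 (adjusted p = 0.0479), a call present in only 2 of the 12 fits (without KO 1, or without WT_RA 3). It read 12.78, 12.74 and 12.92 in WT_RA livers, against 12.36, 12.27 and 12.17 in WT livers, a difference of 0.55 ± 0.11 (adjusted p = 0.0541). This difference passed in 1 of the 12 fits (without KO 1, adjusted p = 0.0134, against up to 0.206 in the others). None of the 4 pairs of groups overlapped.

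Saa3 was the only member whose KO_RA and KO values overlapped. It read 9.93, 11.04 and 9.53 in KO_RA livers, against 9.13, 10.64 and 9.69 in KO livers, a difference of 0.35 ± 0.48 (95% confidence interval −0.69 to 1.39, limma adjusted p = 0.779). In WT_RA livers it read 10.31, 11.32 and 11.36, against 9.35, 8.12 and 8.86 in WT livers, a difference of 2.22 ± 0.48 (4.66-fold, adjusted p = 0.0622), which passed the test in 3 of 12 fits with 1 array left out (without KO 1, KO 2 or KO_RA 2, adjusted p as low as 0.0456). The RA effect in KO mice minus that in WT mice was −1.87 (95% confidence interval −3.35 to −0.39, limma adjusted p = 0.315), so the difference between genotypes did not pass the test.

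**Figure D2:**
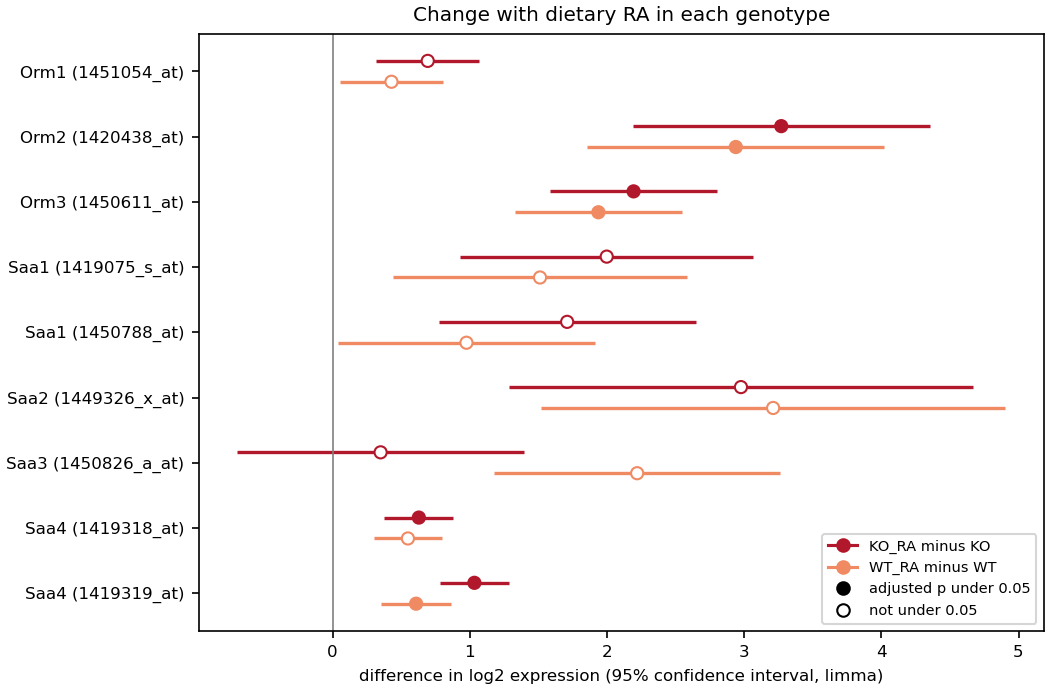
Difference in log2 expression with RA (horizontal axis) for each of the 9 probe sets, KO_RA minus KO above and WT_RA minus WT below, with 95% confidence intervals of the limma model; filled points passed the test. All 18 differences lie above 0, and the interval includes 0 only for Saa3 in KO mice.

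Averaged over both genotypes, which uses all 12 livers, 7 of 9 probe sets were called higher with RA, where 0.844% of all probe sets were. The averaged differences were 3.10 ± 0.35 for Orm2 (8.60-fold, limma adjusted p = 0.00167), 3.09 ± 0.55 for Saa2 (8.54-fold, adjusted p = 0.0189), 2.07 ± 0.20 for Orm3 (4.19-fold, adjusted p = 0.000797) and 1.75 ± 0.35 for 1419075_s_at of Saa1 (3.37-fold, adjusted p = 0.0307). They were 0.82 ± 0.08 for 1419319_at and 0.59 ± 0.08 for 1419318_at of Saa4 (adjusted p = 0.000944 and 0.00572), and 0.56 ± 0.12 for Orm1 (adjusted p = 0.0480). The other Saa1 probe set, at 1.34 ± 0.30 (adjusted p = 0.0550), and Saa3, at 1.28 ± 0.34 (adjusted p = 0.100), did not pass. With 1 array left out, that Saa1 probe set passed in 1 of 12 fits (without KO 2, adjusted p = 0.00594, against up to 0.139 in the others). Orm2, Orm3 and both Saa4 probe sets were called in all 12 fits with 1 array left out and Saa2 in 10 (not without WT_RA 2 or KO_RA 2, adjusted p up to 0.0560). Saa1 1419075_s_at was called in 4 of these fits (not without any WT array, WT_RA 2, WT_RA 3, KO 1, KO_RA 1 or KO_RA 2, up to 0.0869) and Orm1 in 2 (only without WT_RA 1 or KO 2, up to 0.126). Without WT_RA 3 and KO 1 together, 4 of 9 were called, namely Orm2, Orm3 and both Saa4 probe sets, with Saa2 at 2.84 (adjusted p = 0.0527).

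Of the 9 probe sets, only 1 of Saa4 was called between the genotypes. On the normal diet 1 of 9 probe sets was called lower in KO than in WT livers, where 0.398% of all probe sets were, and 2 of 9 lay below the WT values without overlap (9.94% of all probe sets), both of Saa4. Probe set 1419319_at had a difference of −0.64 ± 0.12 (limma adjusted p = 0.0363), and 1419318_at had a difference of −0.48 ± 0.11 (adjusted p = 0.0981). The call of 1419319_at was kept in 4 of 12 fits with 1 array left out and lost without any of the WT or KO_RA arrays, KO 1 or KO 2 (adjusted p up to 0.143). Probe set 1419318_at passed in 1 of these fits (without KO 1, adjusted p = 0.0124, against up to 0.280 in the others). Without WT_RA 3 and KO 1 together, the call moved to the other Saa4 probe set, with −0.55 for 1419319_at (adjusted p = 0.0632) and −0.62 for 1419318_at (adjusted p = 0.0109). For Orm2 the KO minus WT difference was −0.04 with a 95% confidence interval of −1.12 to 1.04. For Saa2 it was −0.01 with an interval of −1.71 to 1.68. Differences of about 1 log2 unit either way in Orm2, and larger ones in Saa2, were thus not excluded. Saa3 had a difference of 1.04 (interval −0.01 to 2.08, adjusted p = 0.353).

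Under RA none of the 9 probe sets differed between KO_RA and WT_RA livers at the threshold, and 2.9% of all probe sets did, so that 0 of 9 is near the share over all probe sets. At an unadjusted p under 0.05 there was 1 of 9, against 3896 of all 22626 probe sets. This was Saa4 1419318_at, with a difference of −0.40 ± 0.11 (limma adjusted p = 0.0922). It passed in 1 of 12 fits with 1 array left out (without KO 1, adjusted p = 0.0268, against up to 0.288 in the others). Both Saa4 probe sets had all KO_RA values below all WT_RA values (13.1% of all probe sets did). The differences of the remaining 7 probe sets lay between −0.83 (Saa3) and 0.38 (Orm3). The intervals were wide: −0.79 to 1.37 for Orm2 and −1.94 to 1.44 for Saa2.

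The RA effects of the 2 genotypes did not differ at the threshold for any of the 9 probe sets (limma, 0 of 9 called), and only 0.0221% of all probe sets, 5 of them, did. At an unadjusted p under 0.05 there were 2 of 9, against 2755 of all 22626 probe sets. These were Saa3 (given above) and Saa4 1419319_at, whose RA effect was greater in KO mice by 0.43 ± 0.16 (limma adjusted p = 0.344). For Orm2 the effect in KO mice minus that in WT mice was 0.33 (95% confidence interval −1.20 to 1.86), for Orm3 0.26 (−0.60 to 1.11) and for Saa2 −0.23 (−2.63 to 2.16). A missed threshold does not show that the effects were equal.

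Livers of one group differed from each other in the Orm, Saa1, Saa2 and Saa3 probe sets more than in most others, and in both Saa4 probe sets they did not. The pooled SD within groups was 0.72 for Orm2, 0.71 and 0.62 for the Saa1 probe sets, 0.70 for Saa3, 0.40 for Orm3 and 0.23 for Orm1, against a median of 0.15 over all probe sets. Saa4, at 0.14 for both probe sets, was close to that median. WT_RA 1 was the lowest WT_RA array for 8 of 9 probe sets and WT_RA 3 the highest for 7. KO 2 was the highest KO array for 6 of 9 and KO 3 the lowest for 6. KO_RA 2 was the highest KO_RA array for 7 and KO_RA 3 the lowest for 6. Orm2 varied over 0.05 log2 units among KO_RA livers and over 1.95 among KO livers.

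**Figure D3:**
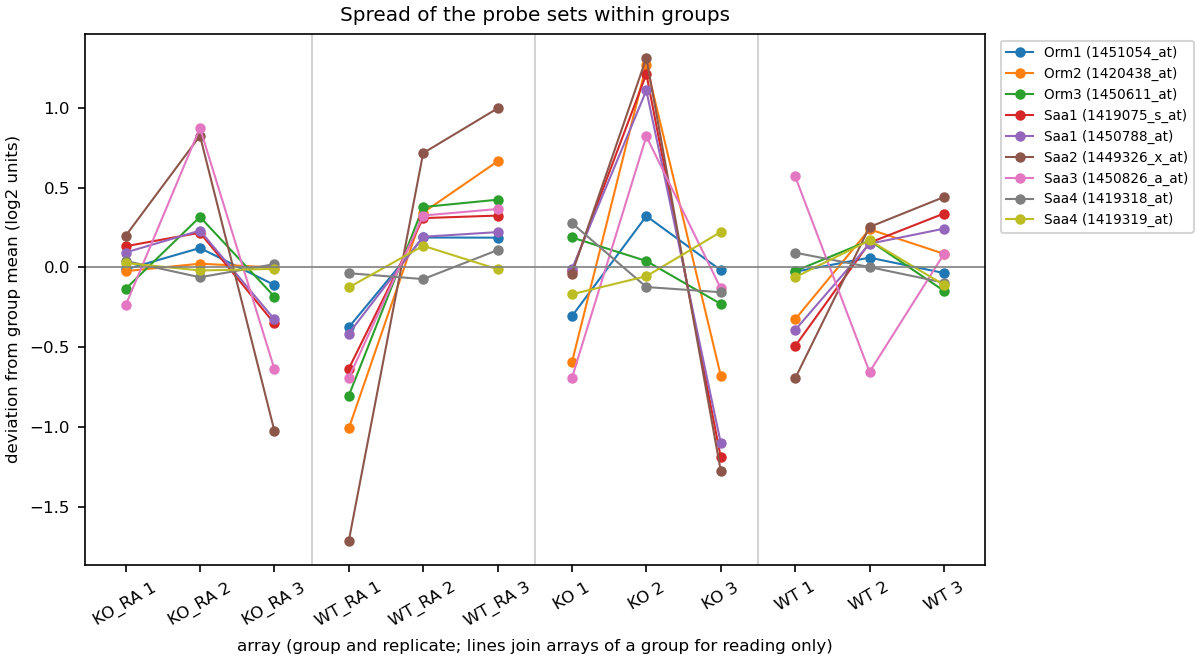
Deviation of each array from its group mean (vertical axis, log2 units) for the 9 probe sets, by array (horizontal axis). KO 2 lies above its group mean for Orm1, Orm2, Saa1, Saa2 and Saa3, WT_RA 1 lies below it for every probe set, and Saa4 has the lowest pooled SD, 0.14.

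As a description over the 12 arrays, which share the diet groups, deviations from the group means had a Pearson r of 0.99 between the Saa1 probe sets and 0.90 between 1419075_s_at of Saa1 and Saa2, which are probe sets of the same gene or the same transcript. It was 0.88 between Orm1 and Orm2, and 0.84 between Orm2 and Saa2. Over the 18 pairs of 1 Orm and 1 Saa probe set the median r of deviations was 0.55, with a range of −0.42 to 0.86. Over the 15 pairs of Saa probe sets it was −0.009, with a range of −0.46 to 0.99. Pairs among the Saa1, Saa2 and Saa3 probe sets lay between 0.46 and 0.99. Those Saa pairs that included a Saa4 probe set lay between −0.46 and −0.005, so Saa4 did not deviate together with the other Saa probe sets. Saa4 1419318_at had an r of deviations of −0.42 with Orm1 and −0.34 with Saa3. The other Saa4 probe set, 1419319_at, had 0.43 with Orm1 and −0.005 with Saa3, so the sign with Orm1 depended on the probe set. The Saa4 probe sets had an r of 0.87 over levels and −0.46 over deviations.

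Among 12386 other genes, those with the pattern most like Orm2 over the 12 arrays, by Pearson r of the log2 levels, were Lcn2 (0.96), Lrg1 (0.96), Itih3 (0.95), Ccl6 (0.93) and Prtn3 (0.93). Lcn2 encodes lipocalin 2, an iron-sequestering acute phase protein of the same fold as orosomucoid, Lrg1 a leucine-rich acute phase glycoprotein, Itih3 a hyaluronan-binding inter-alpha-trypsin inhibitor heavy chain, Ccl6 a chemokine and Prtn3 a neutrophil granule protease. The genes most like Saa2 were Prtn3 (0.95), Steap4 (0.94), Kng1 (0.94), Grn (0.94) and Lcn2 (0.93). Steap4 is a metalloreductase, Kng1 encodes kininogen and Grn granulin. After removal of the group means the r was 0.91 between Orm2 and Lcn2 and 0.81 between Saa2 and Prtn3. Prtn3 read 8.38, 8.64 and 6.89 in KO_RA livers, against 4.56, 5.25 and 4.75 in KO livers. It read 7.23, 8.81 and 10.04 in WT_RA livers, against 4.88, 4.81 and 5.12 in WT livers. The genes most like Saa3 were Tgm2, Tmem176b, Cd163, Crlf2 and Rhoc, of which Cd163 is a scavenger receptor of macrophages.

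Most other positive acute phase genes had smaller differences of the same sign. Of 21 other positive acute phase genes measured, 21 had a positive difference in KO mice and 20 in WT mice, with medians of 0.35 and 0.39 against −0.02 and −0.01 over all probe sets. None of the 21 passed the test in KO mice by limma, while 3 did in WT mice, all higher: Lcn2 by 3.67 ± 0.50 (adjusted p = 0.00811), Mt2, a metallothionein, by 1.53 ± 0.27 (adjusted p = 0.0304), and Steap4 by 1.495 ± 0.30 (adjusted p = 0.0456). Without WT_RA 3 and KO 1, Lcn2 alone of these stayed called in WT mice, with Mt2 at an adjusted p of 0.0901 and Steap4 at 0.124. Lcn2 read 12.86, 13.00 and 12.54 in KO_RA livers, against 9.60, 11.29 and 9.66 in KO livers (difference 2.62 ± 0.50, adjusted p = 0.0520). Averaged over genotypes 7 of 21 were called higher, among them Lcn2 (3.15), Steap4 (1.20), Lbp (1.14), which encodes the lipopolysaccharide-binding protein, and Itih3 (0.79). Without these 2 arrays 3 of the 7 stayed called, Lcn2, Itih3 and Steap4, with Lbp at an adjusted p of 0.0518. Haptoglobin (Hp), a classical member, was not called in either genotype (0.49 in KO mice and 0.30 in WT mice, limma adjusted p = 0.241 and 0.575). It was not called in the average either (0.39, adjusted p = 0.151), while Cp, which encodes ceruloplasmin, was among the 7 called there (0.48, adjusted p = 0.0449). Of 10 negative acute phase genes, whose products fall in inflammation, 5 had a positive and 5 a negative difference in each genotype and none was called lower. Apoa4, an apolipoprotein, was called higher with RA in WT mice (1.05 ± 0.20, adjusted p = 0.0388).

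**Figure D4:**
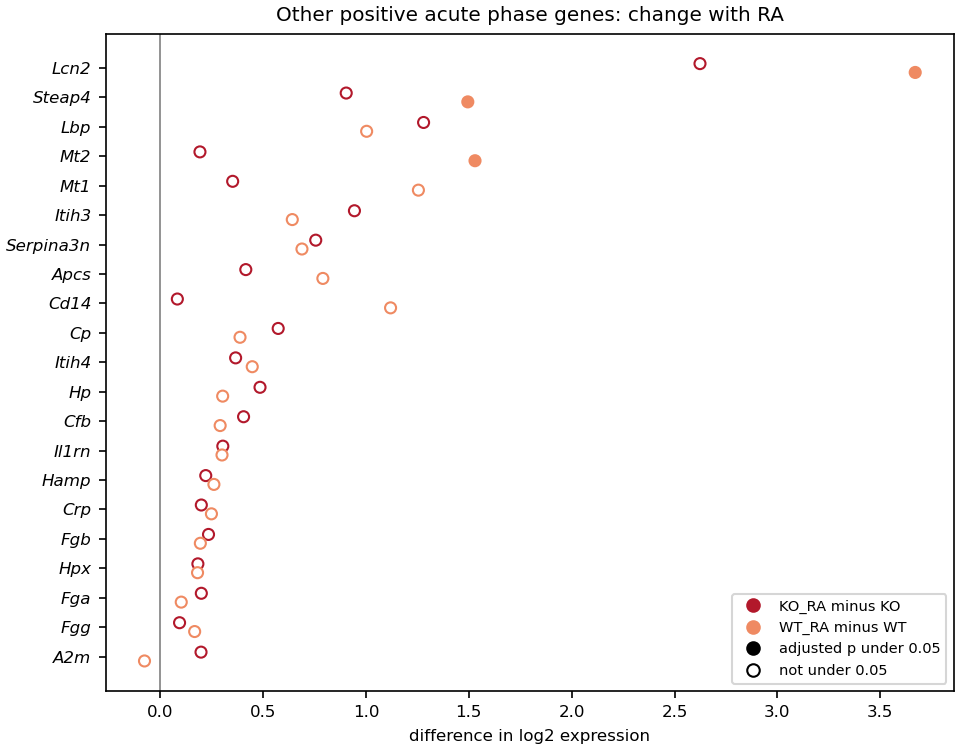
Difference in log2 expression with RA (horizontal axis) for 21 other positive acute phase genes (vertical axis), KO_RA minus KO and WT_RA minus WT; filled points passed the limma test. Lcn2 stands furthest to the right at 2.62 in KO mice and 3.67 in WT mice, and 1 of the 42 differences, A2m in WT mice, is below 0.

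Transcripts upstream of these genes were also measured. Averaged over genotypes, 313 of 22626 probe sets were called with RA, 0.844% of all probe sets as higher. None of 6 cytokine ligands was called in any contrast, which is near the share over all probe sets. Il6 and Il11 were below the lower quartile of every array. Of 10 cytokine receptor genes, Lifr, the receptor of leukemia inhibitory factor, was called lower with RA averaged over genotypes (−0.86 ± 0.15, limma adjusted p = 0.0189) and no other was called. Of 17 signal transducers and transcription factors, 2 were called higher in that average: Stat3 (0.54 ± 0.10, adjusted p = 0.0205) and Cebpb (0.72 ± 0.13, adjusted p = 0.0205). Cebpa, the C/EBP factor of resting hepatocytes, was called lower (−0.53 ± 0.09, adjusted p = 0.0182). Cebpb read 11.08, 11.30 and 11.22 in KO_RA livers, against 10.06, 9.92 and 10.21 in KO livers (1.14 ± 0.18, adjusted p = 0.0322). It read 11.40, 11.56 and 10.77 in WT_RA livers, against 11.18, 10.73 and 10.88 in WT livers, which overlap. Cebpa fell in WT mice (11.03, 10.94 and 11.13 in WT_RA livers, against 12.01, 11.89 and 11.73 in WT livers, −0.85 ± 0.13, adjusted p = 0.0162). None of 10 genes for serum amyloid A receptors and high-density lipoprotein partners was called in any contrast, again near the share over all probe sets.

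Among 9 other lipocalin genes, the family of orosomucoid, Lcn2 and Obp2a were called higher and C8g lower in WT mice on RA, and none in KO mice. Without WT_RA 3 and KO 1 the call of C8g was lost (adjusted p = 0.123). Obp2a, an odorant-binding lipocalin, rose by 2.04 ± 0.17 in WT mice (limma adjusted p = 0.000394), and its RA effect in KO mice minus that in WT mice was −2.39 ± 0.24 (adjusted p = 0.00467).

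Markers of Kupffer cells, the macrophages of liver, were also measured. The mean of 14 measured markers was 7.76, 7.77 and 7.96 in KO_RA livers, against 7.45, 9.57 and 8.40 in KO livers. It was 7.79, 7.97 and 8.61 in WT_RA livers, against 7.10, 7.18 and 7.35 in WT livers. All 14 had a positive difference in WT_RA against WT (median 1.03, 1 called, Cd163), all 14 a negative one in KO_RA against KO (median −0.65, 0 called), and all 14 a positive one in KO against WT (median 1.26, 0 called). KO 2, the array with the highest marker mean, had the highest Orm1, Orm2, Saa1, Saa2 and Saa3 values of its group. The summed linear signal of the markers was 3938 to 4612 in KO_RA and 3993 to 7663 in WT_RA livers, against 3341 to 16466 in KO and 2462 to 3175 in WT livers, and none of the 14 was below the lower quartile of all arrays. Without KO 2, Saa3 had a difference of 0.76 in KO mice (adjusted p = 0.496), the highest of the 12 fits. As a description over the 12 arrays, which share the diet groups, the Pearson r of log2 levels with the marker mean was 0.60 for Saa3, 0.09 to 0.28 for the Orm, Saa1 and Saa2 probe sets, and −0.28 and −0.18 for those of Saa4. Over deviations from the group means it was 0.81 for Orm2, 0.76 for Orm1, 0.57 for Saa3 and 0.13 for Orm3. It was 0.54 for Saa1 1419075_s_at, 0.53 for Saa1 1450788_at and 0.47 for Saa2. The Saa4 probe sets differed in sign, with −0.54 for 1419318_at and 0.15 for 1419319_at. The part of macrophages in these results was not tested. None of 11 neutrophil markers and none of 5 adipocyte markers was called in any contrast, which is near the share over all probe sets. The adipocyte genes Adipoq, Lep and Cidec were below the lower quartile of every array. Neutrophil markers averaged 6.1 to 6.3 in KO_RA and 6.0 to 6.6 in WT_RA livers, against 6.0 to 6.2 in KO and 5.7 to 6.2 in WT livers. The r of levels with their mean was 0.51 to 0.73 for the Orm, Saa1, Saa2 and Saa3 probe sets. Of the 11 markers, 4 had a positive difference with RA in KO mice (median −0.04) and 8 in WT mice (median 0.05). Prtn3, the neutrophil protease given above, is not in that list. It was named for its likeness to Orm2 and Saa2, and its RA and normal diet groups did not overlap in either genotype. The part of neutrophils in these results was not tested.

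**Figure D5:**
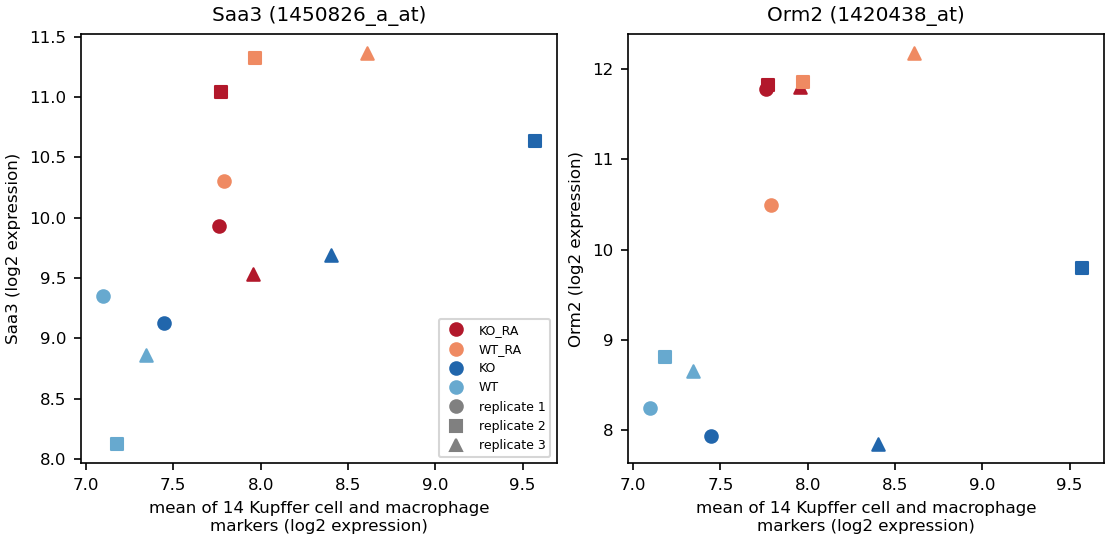
Log2 expression of Saa3 (left, vertical axis) and Orm2 (right, vertical axis) against the mean log2 level of 14 Kupffer cell and macrophage markers (horizontal axis), 1 point per array. KO 2, with a marker mean of 9.57, has Saa3 at 10.64 and Orm2 at 9.80, while the KO_RA arrays have Orm2 between 11.77 and 11.82 at marker means of 7.76 to 7.96.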

How the data were processed

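Per the processing notes, the authors deposited log2 values made with RMA in Partek 6.11, 1 per probe set and array, whereas the study's methods describe MAS5 with a filter on detection. Background correction was not repeated. Of 22690 probe sets, 64 controls were left out. Genes were named from the platform annotation, and for gene lists each gene was represented by its single-symbol probe set with the highest mean.

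limma 3.58.1 (R 4.3.3) was run on the 12 arrays together, with a mean for each group, moderated two-sided tests and 8 residual degrees of freedom, and with Benjamini-Hochberg adjustment over 22626 probe sets in each of 6 contrasts. The methods name no model. Tested on simulated data with 200 changed probe sets, it recovered 87% of differences of 1 in WT mice and 87.5% in KO mice, with 6.45% and 4.37% of calls false. For differences of 2 it recovered 96.5% and 99.5%, with 4.46% and 7.87% of calls false. These shares are not those of the Orm, Saa1, Saa2 and Saa3 probe sets. Their pooled SD within groups was 0.23 to 1.13, against a median of 0.15 over all probe sets. The number of arrays limits the precision. Deviations of same-numbered WT and WT_RA arrays correlated at 0.10, 0.16 and 0.18, against −0.17 to 0.05 over 6 pairs of different number. Same-numbered KO and KO_RA arrays correlated at 0.15, 0.06 and −0.08. Over all groups, 6 of 18 same-numbered pairs and 11 of 36 pairs of different number exceeded 0.1. These correlations thus do not show whether the numbers of the titles pair mice.

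All probe sets of the 7 genes are reported. Up to 4 called genes are named from each of 15 gene lists, with other genes where a member's value needed them, and the 5 genes of most like pattern. Members and lists were chosen with earlier results of these data known. Promoter sequences are RefSeq's (GRCm38.p6). Alternatives were a replicate block, in all groups or in wild type mice alone, further quantile normalization, equal array medians, a filter on dim probe sets, array weights, an intensity trend with a robust prior, 1 value per gene, only the arrays of the groups compared, and leaving out arrays.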

Additional observations from a re-analysis of the deposited data

How the results depend on the processing

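Called differences kept their direction under every alternative run (0 reversals), and sign changes were limited to differences that had not passed the test. The replicate block, the dim filter and the variance prior leave a difference itself unchanged. Where groups do not overlap, leaving out an array cannot reverse it, so the lack of reversals tells little. Of the values of called differences under the alternatives, 237 stayed past the threshold and 79 did not, and 36 values of other differences came to pass it. In the order of RA in WT mice, RXRα deficiency without RA, RA in KO mice, deficiency under RA, difference between RA effects and RA averaged, the fit described in the report called 3, 1, 4, 0, 0 and 7 of 9 probe sets. Array weights gave 6, 4, 7, 1, 1 and 9, but also 1385 calls among all probe sets for RA in WT mice, where 182 were called without them, and the cause was not tested. The filter on dim probe sets, which tests 11965 of them, gave 5 for RA in WT mice. Fits of only the arrays of the groups compared, with fewer arrays, gave 1, 0 and 2 for the comparisons in WT mice, of deficiency on the normal diet and in KO mice. The replicate block gave 2, 0, 3, 0, 0 and 7; the block within wild type mice, chosen after seeing the data, gave 3 for RA in WT mice. Among KO mice the block lost the call of Saa4 1419318_at for RA (adjusted p = 0.0620), and for deficiency on the normal diet that of Saa4 1419319_at (adjusted p = 0.0602). Further quantile normalization gave 0 for deficiency on the normal diet, and the fit without WT_RA 3 and KO 1 gave 4 for RA averaged. With 1 array left out, the counts ranged over 0 to 5, 0 to 1, 1 to 5, 0 to 1, 0 to 0 and 4 to 8.

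For deficiency on the normal diet, further quantile normalization gave 0.053 for Orm2 and 0.091 for Saa2, array weights gave −0.14 for Orm3, and the fit without WT_RA 3 and KO 1 gave 0.031 for Orm1, 0.26 for Orm2 and 0.0054 for Saa2. That fit gave 0.067 and 0.085 for the Saa1 probe sets and 0.25 for Saa2 for deficiency under RA. The difference between the RA effects for Saa2 was 0.43 with array weights and 0.24 without these arrays. With 1 array left out, deficiency on the normal diet gave −0.28 to 0.031 for Orm1, −0.68 to 0.30 for Orm2, −0.67 to 0.62 for Saa2 and −1.19 to 0.013 for Saa1 1419075_s_at. Deficiency under RA gave −0.044 to 0.24 for Orm1, −0.21 to 0.62 for Orm2, −0.025 to 0.59 for Orm3, −0.41 to 0.080 for Saa1 1419075_s_at, −0.23 to 0.14 for Saa1 1450788_at and −1.10 to 0.26 for Saa2. The difference between the RA effects gave −0.17 to 0.97 for Orm2, −0.14 to 0.47 for Orm3, −0.11 to 1.09 for Saa1 1419075_s_at and −1.09 to 0.42 for Saa2, and RA in KO mice gave −0.087 to 0.76 for Saa3.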
